A study of Arabidopsis thaliana with 12 samples.

Results

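ATAB2, CCB3, AT1G22700 and PIFI are nuclear genes of Arabidopsis thaliana whose products help to build or run the photosynthetic complexes of the thylakoid membrane. They were chosen by name among assembly or biogenesis factors of the photosystems, cytochrome b6f and the plastid NDH complex that the platform annotation names alone on a probe; 6 other factors of a wider list also have such a probe and are described after them. Each has 1 probe, out of 692 probes naming a single gene and 3439 probes in the table. The samples are 6 of wild-type plants of the Landsberg ecotype grown for 48 h in blue light at 200 µE, and 6 of wild-type plants of the same ecotype exposed to blue light at 20 µE for 48 h. Total RNA was measured on arrays, with 1 column of intensities in arbitrary units per sample, numbered 1 to 6 at each light level. The labels give neither a tissue nor an age, nor how many plants made up a sample. The comparison asked whether transcripts of these factors differ between plants in bright and in dim blue light.

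Photosystem I, photosystem II, cytochrome b6f and the NDH complex carry electrons through the thylakoid membrane, and each combines subunits encoded in the plastid with subunits imported from the cytosol. Assembly factors do not remain in the finished machinery in most cases. They help to translate plastid messages, hold assembly intermediates, or attach cofactors such as haem and iron-sulphur clusters. ATAB2 is an RNA-binding protein that acts on plastid messages of both photosystems and has been linked to cryptochrome signalling in seedlings. AT1G22700, also known as PYG7, is a tetratricopeptide repeat protein of the thylakoid membrane that photosystem I needs in order to accumulate. CCB3 belongs to the pathway that attaches a haem covalently to cytochrome b6, a role known for this member from the green alga Chlamydomonas. PIFI is needed for NDH-dependent electron flow in the dark, seen as a rise of chlorophyll fluorescence after the light is switched off.

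The middle of the intensity distribution was lower at 200 µE. The median intensity of a column lay between 0.171 and 0.218 units there, against 0.401 to 0.574 units at 20 µE. The mean intensities of the columns overlapped between the light levels, so the columns at 200 µE were not dimmer by a common factor. A deposited value can thus be lower at 200 µE without a lower place among the probes. Tests were therefore run on quantile-normalised log2 values, in which every column has the same distribution, and changes without normalisation and after median centring are given beside those of the 4 genes. Without normalisation the median change over the 1445 tested features (genes, or probes shared by several genes) was -1.30 on the log2 scale. It was -0.07 after quantile normalisation and 0.06 after median centring. Columns 1 and 2, 3 and 4, and 5 and 6 of a light level deviated together from the mean of that level. Each such couple was also averaged and counted once, and means ± SD are over the 3 couple means per light level. The word fell is used only of a gene that passed limma's test, with an adjusted p under 0.05, in 2 fits, 1 on all columns and 1 on couple means. In total RNA, fewer cells of a type and less RNA per cell cannot be told apart.

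CCB3 was the member that differed most between the light levels. Its deposited intensity in columns 1 to 6 was 0.0872, 0.0556, 0.0517, 0.0599, 0.0658 and 0.0461 units at 200 µE. At 20 µE it was 0.650, 0.693, 0.676, 0.548, 0.668 and 0.438 units. The 2 light levels did not overlap, which held in that direction for 47.0% of all tested features in deposited units, and the lowest column at 20 µE lay far above the highest at 200 µE. The mean was 0.0611 ± 0.0089 units at 200 µE and 0.612 ± 0.059 units at 20 µE (SD, n = 3 couples), a ratio of 0.0997 of 200 µE over 20 µE. At 200 µE every column but column 1 lay below 0.0805 units, the 10th percentile of the positive values of all columns, so the ratio rests on dim signal. Column by column, the ratio lay between 0.0765 and 0.134 in the 6 same-numbered pairs.

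**Figure D1:**
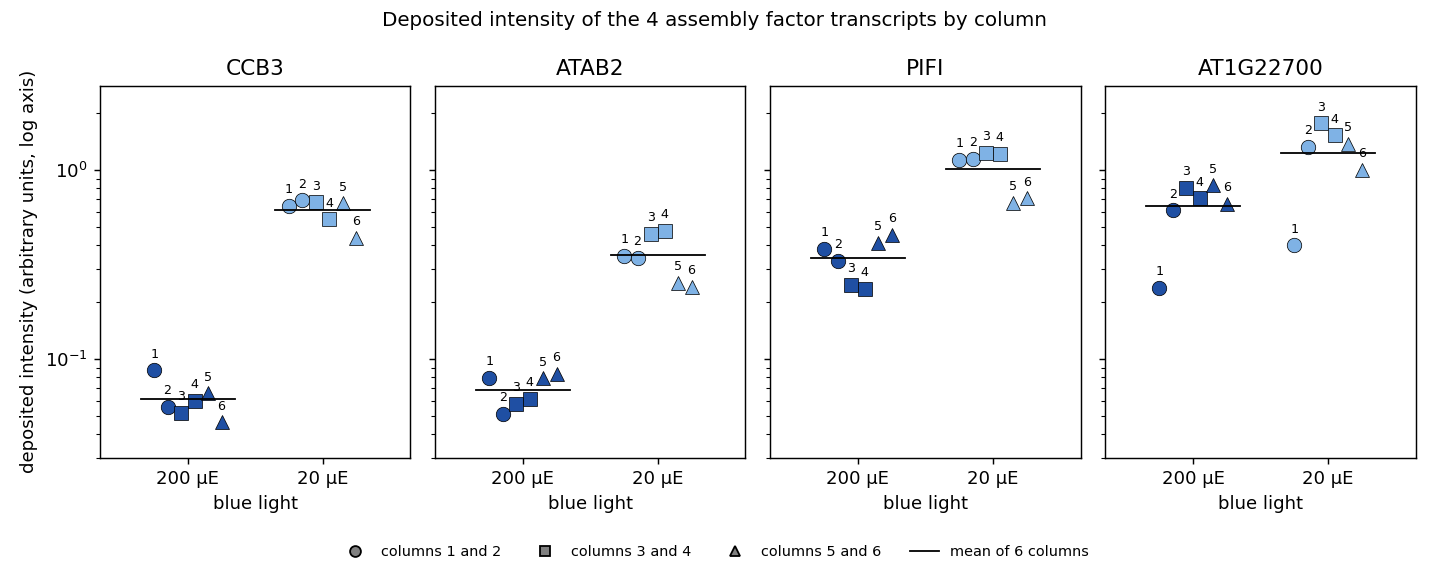
Deposited intensity (arbitrary units, log axis) of CCB3, ATAB2, PIFI and AT1G22700 in the 6 columns at 200 µE (dark, left) and the 6 at 20 µE (light, right). Digits are column numbers, marker shapes the couples of columns and lines the mean of 6 columns. CCB3, ATAB2 and PIFI are lower in every column at 200 µE, whereas AT1G22700 overlaps because its column 1 at 20 µE is low.

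CCB3 also fell relative to the other transcripts of the same plants. It stood at percentiles 24.7 to 30.6 of the probes of a column at 200 µE and at percentiles 48.2 to 71.1 at 20 µE. The change was -1.76 ± 0.17 on the quantile-normalised log2 scale (SE), and limma gave an adjusted p of 1.0e-05 for the 12 columns and of 0.0046 for the couple means. Of all tested features, 29.4% passed as lower over 12 columns, and 14.3% passed as lower in both tests. The share of calls over 12 columns that were higher at 200 µE was 46.5%, against 10.6% without normalisation. The normalised columns of the light levels did not overlap for CCB3, which held in that direction for 18.5% of all features. Its change ranked 153rd from the lowest among the 1445 features. With a pseudocount of 0.0805 units added to every value in place of the floor, the change was -1.21 (limma, adjusted p = 0.0052 over couple means). The change was -3.34 without normalisation and -1.98 after median centring, and passed over the couple means in either case (adjusted p = 0.00025 and 0.0014). Under those scalings 53.6% and 22.8% of all features passed as lower in both fits. With the columns of 1 couple left out of both light levels, CCB3 passed over the remaining 8 columns in each case. Over couple means it then gave an adjusted p of 0.112 without columns 1 and 2, 0.079 without columns 3 and 4, and 0.022 without columns 5 and 6.

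ATAB2, the factor that acts on plastid messages of both photosystems, was lower at 200 µE in every deposited column, but its place among the probes differed less. Its deposited intensity was 0.0792, 0.0513, 0.0578, 0.0617, 0.0790 and 0.0837 units in columns 1 to 6 at 200 µE. At 20 µE it was 0.353, 0.343, 0.460, 0.477, 0.253 and 0.241 units. Every column at 200 µE lay below every column at 20 µE, as it did for 47.0% of all features in deposited units. The mean was 0.0688 ± 0.011 units at 200 µE and 0.355 ± 0.111 units at 20 µE (SD, n = 3 couples). The ratio of 200 µE over 20 µE was 0.125 to 0.347 in the same-numbered columns.

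Among the probes of a column, ATAB2 stood at percentiles 24.0 to 33.5 at 200 µE and 32.9 to 43.4 at 20 µE. Its normalised change was -0.58 ± 0.18 (SE), past the threshold over 12 columns (adjusted p = 0.015) but not over the couple means (0.145; 95% interval of the change -1.23 to 0.06). The normalised columns of the light levels overlapped. Without normalisation the change was -2.34 and after median centring -0.98, and both passed over the couple means (adjusted p = 0.0015 and 0.035). The direction was the same under each of the 3 scalings. With the pseudocount in place of the floor the change was -0.35 (limma, adjusted p = 0.031 over 12 columns, 0.244 over couple means).

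AT1G22700, the photosystem I factor, was not shown to differ between the light levels. Its deposited intensity was 0.239, 0.612, 0.806, 0.708, 0.832 and 0.664 units in columns 1 to 6 at 200 µE. At 20 µE it was 0.399, 1.33, 1.77, 1.53, 1.38 and 1.003 units. The light levels overlapped only through column 1 at 20 µE. Column 1 was the lowest at either light level. Column by column, the ratio of 200 µE over 20 µE lay below 1 in 6 of 6 numbers, between 0.456 and 0.663. The column median of the whole table was also lower at 200 µE in every number, so this count is not particular to the gene. The mean was 0.644 ± 0.189 units at 200 µE and 1.24 ± 0.394 units at 20 µE (SD, n = 3 couples).

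The ratio of its deposited means, 0.521, was above that of the column medians of the whole table, which was 0.388. Its mean percentile was 76.3 at 200 µE and 79.2 at 20 µE, but column 1 went against the others. There it stood at 52.5 at 200 µE and 39.2 at 20 µE. In each of columns 2 to 6 it stood lower at 200 µE (76.6 to 85.2) than at 20 µE (84.0 to 90.3). The normalised change was -0.27 ± 0.47 (SE), and limma gave an adjusted p of 0.66 for the columns and of 0.72 for the couple means. The 95% interval over the couple means ran from -1.55 to 1.003, so that a change by as much as that of ATAB2 or PIFI in either direction was within it. Without normalisation the change was -0.91 (adjusted p = 0.052 over 12 columns), and after median centring the sign turned, to 0.45 (0.36). No direction is given for this transcript. Column 1 decided much of the value. Without column 1 at 20 µE the normalised change was -0.71 (adjusted p = 0.060), and without column 1 at 200 µE it was -0.04 (0.96).

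PIFI, the NDH factor, was lower at 200 µE in deposited units, by an amount that differed between columns. It had 0.384, 0.331, 0.247, 0.235, 0.414 and 0.456 units in columns 1 to 6 at 200 µE. At 20 µE it had 1.13, 1.15, 1.24, 1.22, 0.673 and 0.708 units. As for 47.0% of all features, all columns at 200 µE lay below all columns at 20 µE, with columns 5 and 6 closest to each other across the light levels. The mean was 0.345 ± 0.098 units at 200 µE and 1.02 ± 0.290 units at 20 µE (SD, n = 3 couples). The ratio of 200 µE over 20 µE ranged from 0.192 in column 4 to 0.644 in column 6.

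The normalised change of PIFI was -0.68 ± 0.18 (SE). It passed over 12 columns (adjusted p = 0.0080) and missed the threshold over the couple means (0.126; 95% interval -1.38 to 0.02). Within columns PIFI stood at percentiles 54.1 to 74.3 at 200 µE and 71.4 to 80.8 at 20 µE. The change was -1.57 without normalisation and passed over the couple means there (adjusted p = 0.0096). After median centring it was -0.21 and passed neither over 12 columns (0.41) nor over the couple means (0.64).

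**Figure D2:**
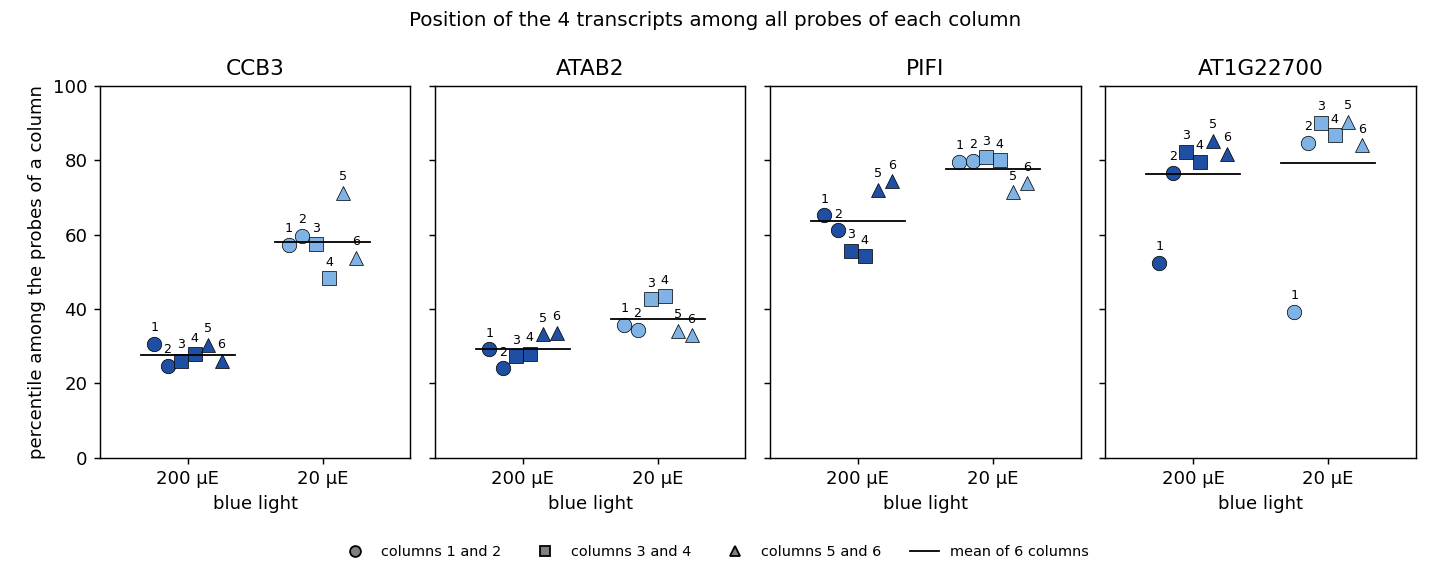
Percentile of the 4 transcripts among the 3439 probes of each column, at 200 µE (dark, left) and 20 µE (light, right). Digits are column numbers, shapes the couples and lines the mean of 6 columns. CCB3 is the only one of the 4 whose columns separate on this scale, with a mean of 27.6 at 200 µE and 57.9 at 20 µE.

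Of the 4 genes, 3 passed as lower over 12 columns and 1, CCB3, passed in both tests, against 29.4% and 14.3% of all features in the same direction. With 4 members these counts describe the genes and are not set apart from the background. None was higher at 200 µE past the threshold, which 25.5% of all features were over 12 columns.

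The couples of columns gave like differences for CCB3 and unlike ones for ATAB2 and PIFI. The normalised difference of CCB3 was -1.80 in columns 1 and 2, -1.57 in columns 3 and 4 and -1.91 in columns 5 and 6. ATAB2 differed by -0.71 and -1.03 in the first and second couple and by -0.01 in columns 5 and 6. PIFI followed the same course, with -0.82, -1.24 and 0.03. For both genes the difference therefore came from columns 1 to 4, and columns 5 and 6 of the 2 light levels were level after normalisation. Among the 425 features that passed as lower over 12 columns, 40 had a difference above -0.1 in columns 5 and 6, which is 9.41%. Without columns 5 and 6 the change was -0.86 for ATAB2 (adjusted p = 0.0044 over 8 columns, 0.082 over couple means) and -1.03 for PIFI (0.00029 and 0.0496). Without columns 3 and 4 it was -0.35 for ATAB2 (adjusted p = 0.21 over 8 columns) and -0.39 for PIFI (0.12), and without columns 1 and 2 it was -0.53 (0.086) and -0.61 (0.11). AT1G22700 gave 0.08, -0.57 and -0.32 in the 3 couples. What separates the couples is not stated in the labels, and its part in these differences was not tested.

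**Figure D3:**
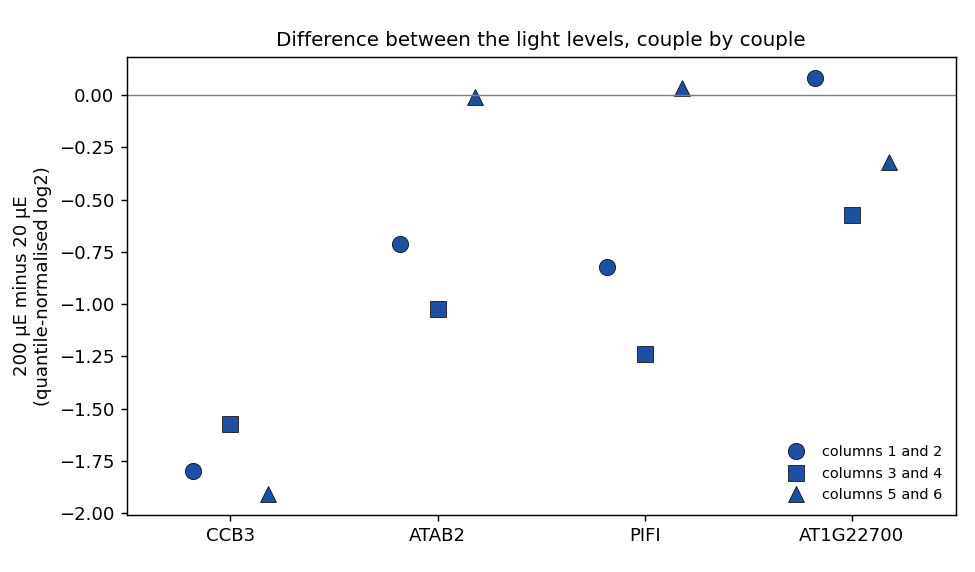
Difference of 200 µE minus 20 µE on the quantile-normalised log2 scale for each couple of columns. CCB3 lies between -1.91 and -1.57 in all 3 couples, whereas ATAB2 and PIFI lie at -0.01 and 0.03 in columns 5 and 6.

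Ratios of 2 members within a column do not depend on a factor that scales the whole column. They do not cancel a shift that differs between dim and bright probes. Medians and means of the columns differed unequally between the light levels, so these ratios are not free of scaling. The 6 ratios among the 4 members were taken on deposited values and compared between the light levels by a two-sided exact permutation test over the 12 columns, with Benjamini-Hochberg adjustment over the 6. That test exchanges all columns freely, although those of a couple deviated together. No ratio passed over couple means, where a p under 0.1 is not possible. On deposited values CCB3 was lower at 200 µE relative to each of the other members. The mean log2 ratio of ATAB2 to CCB3 was 0.18 ± 0.37 in the 6 columns at 200 µE (SD) and -0.82 ± 0.41 in the 6 at 20 µE, a difference of 0.997 (exact permutation p = 0.0022, adjusted 0.0043). The ratio of CCB3 to PIFI differed by -1.77 (exact permutation p = 0.0022, adjusted 0.0043), and that of CCB3 to AT1G22700 by -2.43 (exact permutation p = 0.0043, adjusted 0.0065). In all 3 cases the direction was the same in 6 of 6 same-numbered columns.

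ATAB2 was lower relative to PIFI by 0.78 on the log2 scale, with a mean ratio of -2.31 ± 0.27 in the 6 columns at 200 µE (SD) and -1.53 ± 0.16 in the 6 at 20 µE (exact permutation p = 0.0022, adjusted 0.0043). Relative to AT1G22700 its difference was -1.44 (exact permutation p = 0.013, adjusted 0.016). On quantile-normalised values the difference between ATAB2 and PIFI turned to 0.09 (adjusted 0.58) and that between ATAB2 and AT1G22700 shrank to -0.31 (adjusted 0.58), so that no order of these 3 is given. The ratio of AT1G22700 to PIFI differed by 0.66, with a spread of 0.87 in the 6 columns at either light level (SD; exact permutation p = 0.22, adjusted 0.22), and was higher at 200 µE in 5 of 6 same-numbered columns (differences -0.03 to 1.27). With same-numbered columns as pairs, an exact test of sign changes gave an adjusted p of 0.0625 for this ratio and of 0.0375 for each of the other 5; the smallest unadjusted p it can give is 0.031. Without column 1 at 200 µE the ratio of AT1G22700 to PIFI differed by 0.97 and passed (adjusted 0.032). Column 1 at 20 µE, also low for AT1G22700, stayed in that comparison, so nothing is concluded from it. Over couple means the exact test cannot give a p under 0.1, and 5 of the 6 ratios reached that value.

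Other factors of the same pathways were taken from a list of 57 assembly factors, of which 10 had a probe of their own, the 4 members included. CCS1, which acts in haem attachment to cytochrome f, and CRR41, an assembly factor of the NDH complex, were listed at 0 in all 12 columns and were not tested. Of the 4 others that are no members, 1 passed as higher and 1 as lower over 12 columns, and none passed in both tests (limma). Their median change was 0.09, against -0.07 over all features. Of all features, 25.5% passed as higher and 29.4% as lower over 12 columns, and 393 of 1445 passed in both tests. The counts of so few genes are not set apart from that background.

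RBD1, a thylakoid rubredoxin of photosystem II assembly, measured 0.359 to 0.611 units at 200 µE (median 0.586) and 0.256 to 0.597 units at 20 µE (median 0.413). Its normalised change was 1.43 ± 0.35 (SE), past the threshold over 12 columns (adjusted p = 0.0050) and short of it over the couple means (0.081). The deposited columns of the light levels overlapped, and without normalisation the change was 0.32 (0.23). After median centring it was 1.67 and RBD1 passed as higher in both fits (0.00034 on all columns, 0.016 on couple means), as did 24.8% of all features. LPA19, which helps to process the D1 protein of photosystem II, measured 0.131 ± 0.013 units at 200 µE and 0.415 ± 0.007 units at 20 µE (SD, n = 3 couples). Its place among the probes was similar at either light level, with a normalised change of -0.15 ± 0.16 (adjusted p = 0.45), although without normalisation it passed as lower (-1.68, adjusted p = 0.0019 over couple means). After median centring its change was -0.32 (0.39 over couple means). PSB27, a photosystem II repair factor, varied widely at either light level, between 0.585 and 3.61 units at 200 µE and between 0.428 and 2.48 units at 20 µE. Its change was 0.33 ± 0.59 (adjusted p = 0.67) and 0.10 without normalisation (0.88). After median centring it was 1.46, past the threshold over 12 columns (0.019) but not over the couple means (0.099).

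CPN60B4 is a chaperonin subunit needed to fold a subunit of the NDH complex, and so serves the same complex as PIFI. It was listed at 0 in 5 of 6 columns at 200 µE, with 0.0333 units in column 3, and at 0 in 1 of 6 columns at 20 µE, where the median was 0.573 units. It passed as lower over 12 columns (adjusted p = 0.027) but not over the couple means (0.17). Over couple means it passed without normalisation (0.0056) and after median centring (0.023), whereas with array weights it did not pass over 12 columns (0.797). Any of columns 1, 4, 5 and 6 at 200 µE, and likewise any of 3, 4, 5 and 6 at 20 µE, ended that call over 12 columns when left out (adjusted p between 0.0505 and 0.062), and no fold is given for values at the floor.

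Of 46 listed nuclear-encoded subunits and partners of the complexes that these factors serve, 5 had a probe of their own, and NDHN of the NDH complex was listed at 0 throughout. Of the 4 tested, 1 passed as higher and 1 as lower over 12 columns, and none passed in both tests (limma). Over 12 columns 25.5% of all features passed as higher and 29.4% as lower, so these counts are not set apart from the background. NDHS, the ferredoxin-binding subunit of the NDH complex, measured 9.61 ± 2.13 units at 200 µE and 8.11 ± 2.06 units at 20 µE (SD, n = 3 couples). Its normalised change was 0.07 ± 0.17 (adjusted p = 0.76; 95% interval over the couple means -0.60 to 0.74), but 1.61 after median centring, where it passed (adjusted p = 0.0042 over couple means). PSBY of photosystem II passed as higher over 12 columns (0.67, adjusted p = 0.0066) and not over the couple means (0.11). It was 0.65 without normalisation (0.015 over 12 columns, 0.149 over couple means) and 2.01 after median centring, where it passed in both fits (0.0016 over couple means). PSBW, also of photosystem II, passed as lower over 12 columns (-0.48, adjusted p = 0.025) and not over the couple means (0.17). PSAN of photosystem I had a change of -0.42 and passed in neither fit (0.18 and 0.44). A block on the column number brought PSAN past the threshold over 12 columns (-0.42, adjusted p = 0.049), and so did array weights (-0.88, 0.00041), but over couple means blocked by couple it did not pass (0.25). The sign of both turned under median centring, where PSBW passed as higher over the couple means (1.60, adjusted p = 0.0037) and PSAN did not (1.12, 0.058). No direction is given for either. No probe named alone a listed subunit of cytochrome b6f, the complex that CCB3 serves.

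**Figure D4:**
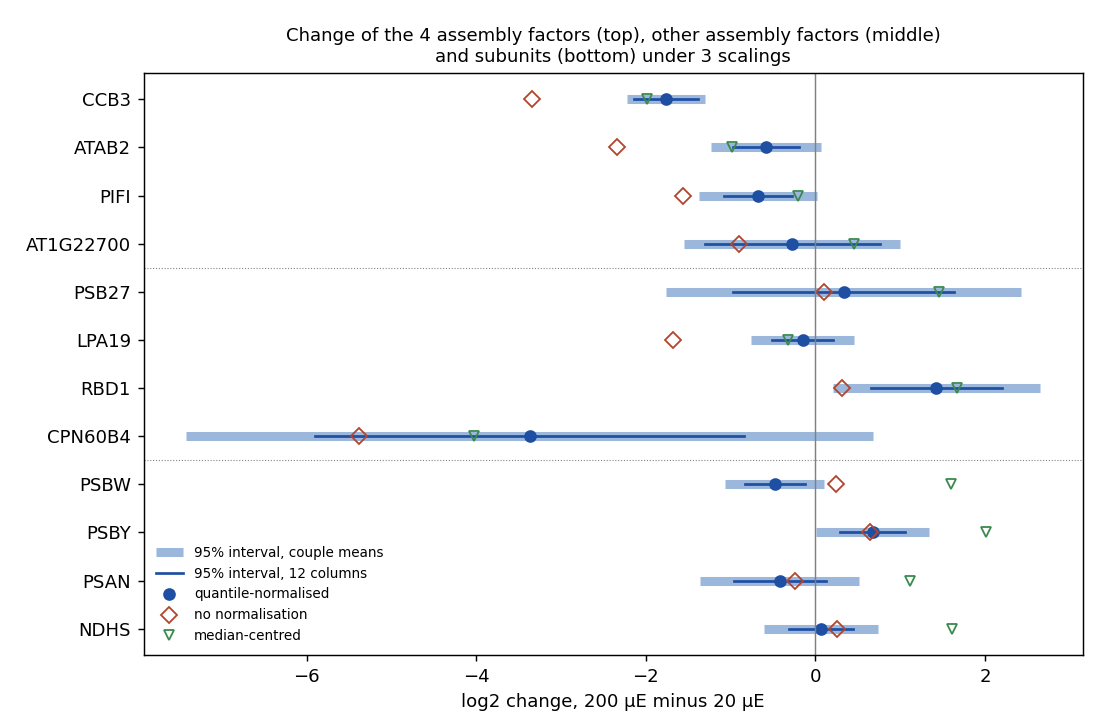
Log2 change (200 µE minus 20 µE) of the 4 members, the other 4 tested assembly factors and the 4 tested subunits. Filled circles are quantile-normalised changes with 95% intervals over 12 columns (thin bars) and couple means (thick bars); diamonds are changes without normalisation and triangles changes after median centring. CCB3 lies at -1.76, -3.34 and -1.98 on these scalings, whereas the bright subunits PSBY, PSBW and NDHS lie above 1.5 after median centring alone.

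The genes whose normalised values ran most like those of each member over the 12 columns were picked among 568 genes with a probe of their own and values above 0 in at least 9 columns. All points share the columns and their couples, and the correlations are descriptions. PIFI ran closest with Z-ISO, the zeta-carotene isomerase of carotenoid synthesis (Pearson's r = 0.971 over 12 columns, 0.930 after the mean of each light level was removed), then with AT1G11800 (0.967 and 0.918) and AT2G06040 (0.947 and 0.870). CCB3 ran closest with AGL54, a MADS-box gene (0.968 and 0.699), AT2G33180 (0.965 and 0.628) and AT1G70350 (0.949 and 0.652). ATAB2 ran closest with AT1G61990 (0.936 and 0.867), AT4G27250 (0.907 and 0.794) and the MADS-box gene AGL103 (0.906 and 0.810). AT1G22700 had no gene as close: its nearest were AT1G05490 (0.744 and 0.747), AT5G59400 (0.706 and 0.710) and AT2G04360 (0.694 and 0.686). Among the members themselves, ATAB2 and PIFI were the most alike, with 0.859 over 12 columns and 0.687 within light levels. CCB3 and PIFI correlated at 0.711 over 12 columns but at -0.10 within light levels.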

How the data were processed

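The authors deposited 1 table of linear intensity values in arbitrary units; its array chemistry, background correction and scaling were found in no source used here. Groups and column numbers were taken from the sample titles, and all 12 columns were mapped. Gene names came from the platform's annotation, joined to a TAIR10.1 gene table; no coordinates are given because no build is named for the array. The annotation gave 1 gene for 692 of the 3439 probes and several for 870, and the remaining 1877 are unnamed here. The 2 probes of 1 gene were averaged. Zeros (12.4 to 18.3% of a column) and smaller positive values were set to the 1st percentile of the column's positive values, 0.0040 to 0.0465 units, and quantile normalisation of the log2 values used all probes. No member had a value at 0. Of 1561 annotated features, 116 had no value above 0 and were dropped. For the other 1445, 200 µE minus 20 µE was tested two-sided by limma 3.58.1 under R 4.3.3 with lmFit and eBayes, with no block and Benjamini-Hochberg adjustment over all of them. The limma fits were also run on simulated log2 values with normal noise and couple effects drawn separately for each light level. These values held no effect shared by same-numbered columns, and flooring and normalisation were not part of that run.

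Same-numbered columns deviated together (correlations 0.17 to 0.55 for the 6 pairs, and 12 of 12 columns matched their own number best). The numbers were treated as pairs in the sign-change test of the ratios and in the fit with a replicate block. The main limma fits and the permutation test over 12 columns did not use them. This pairing comes from the values, the meaning of a number being unstated. Columns of a couple correlated at 0.26 to 0.82, against at most 0.16 between couples. Whether the samples are separate plants is unstated, so that p-values over 12 columns measure a spread that may be partly technical. The number of arrays limits the precision.

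The members and lists were chosen with earlier results of these data known. Named were the 4 members, every listed gene with a probe of its own, and the 3 genes most alike to each member. The within-column ratios and their paired test, the differences by couple and the couple means under other scalings were added after the data were seen. The alternatives covered normalisation, floor, block, couples, features tested, a filter on dim features, variance trend, array weights and left-out columns. A motif search of promoters was not run.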

Additional observations from a re-analysis of the deposited data

Results flagged for a closer look

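Among 24 sets of 6 values of the members and listed genes, 5 had their highest or lowest column far from the next. About 1 in 20 sets, here 1.2, would by chance if sets were independent and free of ties. Same-numbered columns deviated together, and CPN60B4 at 200 µE had all values but 1 tied at the floor, so no excess is concluded. AT1G22700 was set apart at both light levels, each time by column 1. Its normalised log2 value there was -1.56 at 200 µE, against -0.43 to 0.11 in the other columns, and -2.23 at 20 µE, against 0.03 to 0.61. Column 1 minus column 2 of the same light level was -1.14 at 200 µE and -2.31 at 20 µE, a gap of over 1 at both levels that 5 of 1445 features (0.346%) had. The other sets were LPA19 in column 1 at 200 µE (-2.65, others -2.20 to -2.0), CPN60B4 in column 3 at 200 µE (-3.67, others at the floor of -6.24) and PSBY in column 6 at 200 µE (1.05, others 1.14 to 1.18).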

How the results depend on the processing

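CCB3 kept its direction and passed in all 32 alternative fits (log2 change -3.34 to -1.21, highest adjusted p 0.019); the couple means without couple 1 or 2 are given above. ATAB2 kept its direction but did not pass over couple means (-0.58, adjusted p = 0.145), over couple means blocked by couple (-0.58, 0.19), with couples as a random block (-0.58, 0.139), or without couple 1 (-0.53, 0.086) or couple 2 (-0.35, 0.21) of both groups. PIFI kept its direction but did not pass with median centring (-0.21 over 12 columns and over couple means), over couple means without or with couples blocked (-0.68, 0.126 and 0.19), or without couple 1 (-0.61, 0.11) or couple 2 (-0.39, 0.12). With array weights ATAB2 (-0.62, adjusted p = 0.00089 over 12 columns, 0.032 over couple means) and PIFI (-0.98, 4.1e-05 and 0.020) passed in both limma fits. There 737 features passed in both. AT1G22700 reversed with median centring (0.45 over 12 columns and over couple means) and array weights (0.35). The cause was not tested. With 1 column left out, changes were -0.65 to -0.47 for ATAB2, -1.89 to -1.67 for CCB3, -0.71 to -0.04 for AT1G22700 and -0.76 to -0.57 for PIFI. With the replicate block, which uses the pairing of numbers, no member's call over 12 columns changed (adjusted p = 0.037, 0.00019, 0.26 and 0.037 for ATAB2, CCB3, AT1G22700 and PIFI) and 874 features passed.

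Over 12 columns 794 features passed, and 739 to 820 with 1 column left out. The count was 397 over couple means, 393 with couples blocked, 472 with couples as a random block, 1703 over all probes and 337 over probes naming 1 gene. Past both tests were 393 features, and 361 to 408 with 1 column left out. That count was 842 without normalisation, 687 with median centring, 906 over all probes, 155 over probes naming 1 gene and 737 with array weights. Without couple 1 it was 0 (limma; 348 at an unadjusted p under 0.05 in both tests) and without couple 2 it was 11, each fit then resting on 2 couples per group.

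Of the other named genes, PSBW reversed without normalisation (0.24) and with median centring (1.60), PSAN (1.12) and AT4G27250 (0.92) with median centring, and AT2G04360 with array weights (0.87), in each case from a negative change. PSB27 reversed with array weights (-0.40) and without couple 3 (-0.10), and lay between -0.027 and 0.58 with 1 column left out. NDHS did so with array weights (-0.10), and without couple 3 (-0.018), and lay between -0.039 and 0.15 with 1 column left out. AT1G05490 (symbol chr31) turned positive with median centring (0.47), array weights (1.13), and without couple 3 (0.27), and lay between -0.55 and 0.21 with 1 column left out. The ratio of ATAB2 to PIFI reversed on normalised values (0.095). Values near the floor are bounds.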
